A study of Saccharomyces cerevisiae with 40 samples.

Results

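The genes described here are the aminoacyl-tRNA synthetases of budding yeast, taken by name from a table of normalized read counts: 32 synthetase genes and ARC1, a cofactor of the glutamyl- and methionyl-tRNA synthetases. All 33 names were found among the 6462 genes of the table, and all 33 passed the filter on low values. They divide into 20 genes whose product works in the cytosol, in some cases in the mitochondrion as well, and 13 genes for mitochondrial enzymes. The sequenced libraries, 40 in number, are labelled as cultures of Saccharomyces cerevisiae and form 10 groups of 4: Ctrl, and 9 groups treated with Ala, Gly, Val, Ile, Thr, Phe, Trp, Cys or Met. Strain, dose, time and medium are not given in the labels used here. The letters A to D are labelled as batches, and each group has 1 library of each letter. The study's title concerns thresholds at which metabolite balance fails, and the comparison asked of these genes is whether synthetases, above all the one that uses the amino acid of the treatment, differed from Ctrl.

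An aminoacyl-tRNA synthetase joins an amino acid to its tRNAs, which the ribosome then reads. Yeast keeps separate nuclear genes for most cytosolic and mitochondrial synthetases, while ALA1, GRS1, HTS1 and VAS1 each supply both compartments. When uncharged tRNA accumulates, the kinase Gcn2 raises translation of the transcription factor Gcn4, whose sites carry the core TGACTC; mRNAs of many nuclear genes for mitochondrial proteins are bound by the RNA-binding protein Puf3 at sites with the core TGTANATA.

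These 2 cores were searched in RefSeq sequence (build R64), and the sites are shown because they differ between the cytosolic and the mitochondrial genes. The Puf3 core and both window lengths were chosen after the values had been seen, and a match is a description of letters, not evidence of binding. In the 300 bases after the stop codon, on the coding strand, TGTANATA was present in 13 of 13 mitochondrial genes (100%), in 3 of 20 cytosolic genes (15%) and in 963 of 5827 protein genes of the table (16.5%). The nearest match in the mitochondrial genes began 16 to 92 bases after the stop codon, and in 11 of the 13 this nearest match had A in the open position. MSF1 has the form with T at 41 bases and the form with A, shown here, at 52 bases. In 6 mitochondrial genes that were higher in Ala and in MSM1 and NAM2, which did not pass the test there, the sites read as follows, coding strand, core in capitals.
MSF1, mitochondrial phenylalanyl: tatatatctTGTAAATActttgtcag
DIA4, mitochondrial seryl: agaaaatctTGTAAATAtgtaatctt
MSE1, mitochondrial glutamyl: atagggtcaTGTAAATAcgtcatata
MSD1, mitochondrial aspartyl: ggtttttctTGTAAATAttataccta
MSW1, mitochondrial tryptophanyl: caaacgcaaTGTAAATAataatacag
MSR1, mitochondrial arginyl: ttataaacaTGTAAATAgaagaaagt
MSM1, mitochondrial methionyl: ttactgcacTGTAAATAttaacttaa
NAM2, mitochondrial leucyl: actagtgctTGTAAATAgttaaatat
The cytosolic genes with this core were ALA1, GLN4 and GUS1.

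TGACTC, searched on both strands in the 500 bases before the start codon, was present in 8 of 20 cytosolic genes (40%), in 2 of 13 mitochondrial genes (15.4%) and in 750 of 5827 protein genes (12.9%). The 8 cytosolic genes were ALA1, ILS1, DED81, VAS1, THS1, SES1, KRS1 and ARC1. The sites of 4 of them, which come up again in the Trp comparison, read as follows on the strand that carries the core, in capitals.
ILS1, isoleucyl: aaacaatgaTGACTCttaagcatg
DED81, asparaginyl: gacattcagTGACTCaagcatcgc
VAS1, valyl: ctgtatgggTGACTCttctaaaaa
KRS1, lysyl: atgatgaaaTGACTCttaatgaac

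Library depth, estimated from the steps between low values, ran from 5555866 to 17928682 reads, and libraries of the same group correlated at r of 0.968 to 0.991 across genes. Reads of ILS1, MES1 and GLN4 were mostly fractional, as when reads are shared with another gene model (7, 8 and 9 of 40 values whole), so these 3 genes are uncertain; the other 30 members were whole in all 40 libraries. STE2, the receptor gene of mating type a, stood at 6989 ± 130 normalized reads in Ctrl and STE3, that of mating type alpha, at 17.2 ± 5.92 (SD, n = 4). In bulk libraries, fewer cells with a transcript and less of it per cell cannot be told apart.

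The cytosolic genes were far above the mitochondrial ones in Ctrl. Per kilobase of coding length, the 19 cytosolic genes other than GRS2 lay between 1988 normalized reads in GLN4, the glutaminyl enzyme, and 8858 in KRS1, with a median of 3785. The 13 mitochondrial genes lay between 88.9 in DIA4 and 292 in MSK1, the mitochondrial lysyl enzyme, with a median of 155. GRS2, a paralog of the glycyl-tRNA synthetase gene GRS1 that RefSeq describes as induced under heat and other stresses, stood at 124 ± 12.6 per kilobase against 4882 ± 211 for GRS1 (SD, n = 4).

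Ala was the treatment in which most synthetase genes moved, and the cytosolic and mitochondrial genes moved apart. Tests were made with limma on log2(value + 1) over all 40 libraries, with p-values adjusted over 6103 genes and a threshold of 0.05; all comparisons with Ctrl share the same 4 Ctrl libraries. In Ala against Ctrl, 15 of the 20 cytosolic genes fell, 1 rose and 4 did not pass, with a median log2 difference of -0.29. Of the 13 mitochondrial genes, 11 rose, none fell (11 also passed at an unadjusted p of 0.05) and 2 did not pass, with a median of 0.44. Over all genes tested, 23.1% rose and 24.2% fell in Ala, and the median was -0.01. In 23 of the 33 members no Ala library overlapped any Ctrl library, which held for 40.5% of all genes tested.

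The mitochondrial genes that rose most in Ala were MSF1, DIA4, MSE1 and MSD1. MSF1 had 134, 152, 128 and 150 normalized reads in Ctrl A to D and 232, 265, 259 and 224 in Ala A to D. Every Ala library was above every Ctrl library, and the log2 difference was 0.80 ± 0.18 (SE; adjusted p = 0.000415, limma). DIA4, a probable mitochondrial seryl enzyme, had 114, 122, 95.6 and 145 normalized reads in Ctrl and 189, 236, 209 and 164 in Ala. Ctrl D was the highest of its group and Ala D the lowest of its own, and the groups still did not overlap, with a log2 difference of 0.74 ± 0.16 (SE; adjusted p = 0.000258, limma).

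MSE1 had 194, 185, 181 and 169 normalized reads in Ctrl and 361, 281, 309 and 254 in Ala. Its groups did not overlap, and Ala A was the highest of the 8 libraries; the log2 difference was 0.71 ± 0.11 (SE; adjusted p = 3.35e-06, limma). MSD1 had 304, 341, 286 and 292 normalized reads in Ctrl and 513, 523, 505 and 421 in Ala, a log2 difference of 0.68 ± 0.10 (SE; adjusted p = 5.61e-07, limma). Again all Ala libraries were higher, with Ala D nearest to Ctrl. MSW1 had 203, 178, 170 and 184 normalized reads in Ctrl and 290, 285, 262 and 271 in Ala, and MSR1 had 373, 336, 328 and 289 in Ctrl and 462, 448, 520 and 445 in Ala. Both were higher in all Ala libraries, by 0.59 and 0.50 on the log2 scale.

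MSY1 (tyrosyl), MST1 (threonyl), SLM5 (asparaginyl), MSK1 and ISM1 (isoleucyl) rose by 0.44, 0.44, 0.31, 0.29 and 0.25 on the log2 scale. MSM1 and NAM2 had log2 differences of 0.10 and 0.10 with adjusted p of 0.485 and 0.301 (limma). The calls of 3 of these genes rested on single libraries. MSK1 was no longer called without Ctrl B (0.24, adjusted p = 0.0525). ISM1 was lost without Ctrl C (0.23) or Ala C (0.21), and SLM5 without Ctrl B (0.31), Ctrl C (0.30), Ala A (0.29) or Ala C (0.24).

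Among the cytosolic genes the fall in Ala was shared by enzymes of unrelated amino acids. ILS1 had 11654, 12233, 12941 and 11404 normalized reads in Ctrl and 8529, 8869, 7731 and 9441 in Ala, a log2 difference of -0.48 ± 0.08 (SE; adjusted p = 6.65e-06, limma). Its 4 Ala libraries lay below all Ctrl libraries, as did those of DED81, whose log2 difference was -0.38 (adjusted p = 0.000115). MES1 (methionyl) and GLN4, whose values like those of ILS1 were mostly fractional, had log2 differences of -0.47 and -0.44. Without ILS1, MES1 and GLN4 the count of cytosolic genes that fell was 12.

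FRS1, the beta subunit of the cytosolic phenylalanyl enzyme, had 5227, 5372, 5684 and 4907 normalized reads in Ctrl and 4096, 4596, 3730 and 4553 in Ala. The groups did not overlap, and the log2 difference was -0.32 ± 0.07 (SE; adjusted p = 0.000129, limma). FRS2, its alpha subunit, fell by 0.26, CDC60 (leucyl) by 0.33, KRS1 by 0.31, THS1 (threonyl) by 0.31, VAS1 by 0.29, WRS1 (tryptophanyl) by 0.28, GUS1 (glutamyl) by 0.26, ARC1 by 0.23 and TYS1 (tyrosyl) by 0.19 on the log2 scale. SES1 (seryl), HTS1 (histidyl), GRS1 and DPS1 (aspartyl) did not pass, with log2 differences of -0.07, 0.14, -0.12 and -0.08.

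Several of these calls were lost when 1 library was left out, most often Ala C. Without Ala C the count of cytosolic genes that fell was 10, and without Ctrl C it was 11. VAS1 was lost without Ctrl C (-0.23), Ctrl D (-0.27), Ala B (-0.25) or Ala C (-0.22), and FRS2 without Ctrl C (-0.20), Ctrl D (-0.25), Ala B (-0.25) or Ala C (-0.15). TYS1 was lost without Ctrl A, Ctrl B, Ctrl C, Ala A or Ala C (-0.20 to -0.15), GUS1 without Ctrl C (-0.21) or Ala C (-0.18), and ARC1 without Ala C (-0.15). In all, 19 of the 27 members called in Ala passed with each of the 8 libraries left out in turn.

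GRS2 rose where most cytosolic genes fell. It had 266, 217, 225 and 216 normalized reads in Ctrl and 320, 393, 308 and 322 in Ala, a log2 difference of 0.54 ± 0.10 (SE; adjusted p = 8.51e-05, limma). Every Ala library was above every Ctrl library, and Ala B stood apart as the highest. Its paralog GRS1 had 9411, 9555, 10371 and 9800 normalized reads in Ctrl and 9158, 9340, 7482 and 10126 in Ala, and those groups overlapped.

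How far the cytosolic genes fell in Ala depended on how libraries were scaled. With libraries scaled to equal totals, the median of all genes in Ala moved from -0.01 to 0.18, and the split of all calls moved from 1407 higher and 1474 lower to 2167 higher and 757 lower. On that scale 4 cytosolic genes fell and 2 rose, and 12 mitochondrial genes rose. Relative to the median of all genes, the cytosolic median was -0.28 and the mitochondrial median 0.45 on both scales. Scaling moves all genes of a library together, so this likeness was fixed in advance and is no check. The genes that fell on both scales were ILS1, MES1, GLN4 and DED81, of which DED81 alone had whole values in all 40 libraries.

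A ratio of mitochondrial to cytosolic reads within a library does not depend on that scaling. Summed over the 13 mitochondrial genes, the level was 3433 ± 106 normalized reads in Ctrl and 4585 ± 140 in Ala, and over the 20 cytosolic genes it was 156248 ± 7540 and 129247 ± 12000 (SD, n = 4). Per 100 cytosolic reads, Ctrl A to D had 2.36, 2.19, 2 and 2.26 mitochondrial reads and Ala A to D had 3.56, 3.56, 4.12 and 3.06. The lowest Ala library was above the highest Ctrl library, and Ala C was the highest of all 40. In the other 8 treatments the group means lay between 2.23 in Cys and 2.56 in Trp, and the highest single library was Phe C at 3.20.

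**Figure D1:**
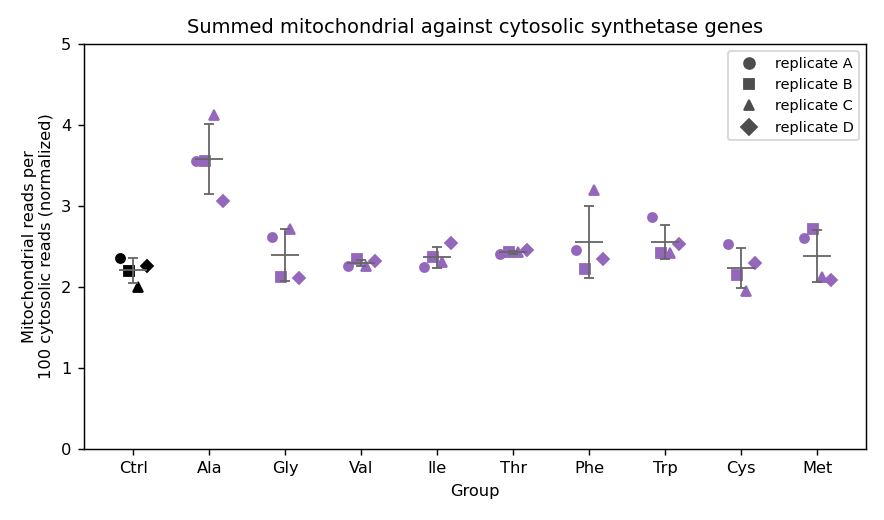
Mitochondrial synthetase reads per 100 cytosolic synthetase reads (y axis, normalized reads summed over 13 and 20 genes) in each of the 40 libraries, by group on the x axis, with the marker giving the replicate letter and bars the mean ± SD of 4 libraries. The Ala libraries lie between 3.06 and 4.12, the Ctrl libraries between 2 and 2.36, and Phe C at 3.20 lies among the Ala values.

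Ala also differed from the other amino acids. Against the mean of the other 8 treatments, 12 of the 33 members were higher and 15 lower, where 50.7% of all genes passed in either direction. Of the members, 26 passed both there and against Ctrl in the same direction, 12 higher and 14 lower. The share of all genes that passed both was not computed. Both comparisons use the same Ala libraries and so are not independent. Against Ctrl, 23.1% of all genes rose and 24.2% fell in Ala. The 26 are therefore not shown to set the members apart from other genes. VAS1 was the member called against Ctrl that was not among the 26. Without Ala C the 26 became 17, and with equal library totals it was also 17.

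Other genes of tRNA charging, translation and tRNA processing were followed in Ala by list. Of 8 other genes for tRNA charging, 3 cytosolic enzymes fell, YDR341C (arginyl) by 0.33, YHR020W (prolyl) by 0.29 and YNL247W (cysteinyl) by 0.22 on the log2 scale. In the same list 3 mitochondrial genes rose, PET112 by 0.66 and HER2 by 0.46, which encode subunits that form glutaminyl-tRNA in the mitochondrion, and AIM10, a putative prolyl enzyme, by 0.53. AIM10 had 10 of 40 values whole, again as when reads are shared, so its values are uncertain wherever they are given. The list's median was 0.03, and GTF1 and FMT1 did not pass.

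Of 8 genes for elongation factors of cytosolic translation, 6 fell and none rose, with a median of -0.50; the lowest was EFT2, elongation factor 2, at -0.70. TEF1 and TEF2, which encode the factor that carries charged tRNA to the ribosome, had log2 differences of -0.47 and -0.42, and as TEF1 with TEF2 and EFT1 with EFT2 are nearly identical in sequence, the split of reads between them is uncertain. YEF3 and TEF4 had differences of -0.56 and -0.53 and EFT1 of -0.53. Of 6 mitochondrial translation factors measured, 3 rose and none fell, RRF1 (ribosome recycling) by 0.76, MRF1 (release) by 0.59 and IFM1 (initiation) by 0.53, with a list median of 0.39.

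Of 5 genes of general amino acid control, GCN1, GCN20 and GCN3 fell by 0.35, 0.27 and 0.24 on the log2 scale, with a median of -0.24. GCN2, the kinase that senses uncharged tRNA, and GCN4 had differences of 0.04 and 0.06 and did not pass; GCN4 is known to be controlled mainly in translation, which RNA levels do not show. Of 9 genes for tRNA export and splicing, 4 fell, with a median of -0.22: the tRNA ligase gene TRL1 by 0.59, SEN15 and SEN34, subunits of the splicing endonuclease, by 0.45 and 0.41, and the export receptor gene LOS1 by 0.34. These lists were read against 23.1% of all genes higher and 24.2% lower. Their calls in Ala were not examined with equal library totals, which moved the median of all genes from -0.01 to 0.18, nor with single libraries left out. The smaller falls of listed genes, such as those of GCN3, GCN20, YNL247W and YHR020W, are therefore uncertain.

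The cores in the flanking sequence were set beside these changes. Among cytosolic genes, the 8 with TGACTC had a median log2 difference of -0.31 in Ala and the 12 without it -0.26, and 7 of the 8 and 9 of the 12 were called in either direction. All 13 mitochondrial genes have TGTANATA, so there is no mitochondrial member without it to set beside them. Among the other protein genes tested, members left out, 33.1% of 930 genes with TGTANATA rose in Ala and 22.7% of 4671 genes without it, with medians of 0.12 and -0.02. No test was made of these shares, and whether they bear on the rise of the mitochondrial synthetases was not tested.

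Of the 9 cytosolic synthetase genes whose own amino acid was supplied, 1 passed against Ctrl, ALA1 in Ala, and it fell. ALA1, the alanyl enzyme, had 8160, 8458, 9504 and 8776 normalized reads in Ctrl and 6760, 6357, 6000 and 7934 in Ala. All 4 Ala libraries lay below all Ctrl libraries, with Ala D nearest to them, and the log2 difference was -0.37 ± 0.10 (SE; 95% interval -0.58 to -0.17; adjusted p = 0.003, limma). Against the other 8 amino acids its difference was -0.25 (adjusted p = 0.00715). Both depended on the scaling: with equal library totals they were -0.19 (adjusted p = 0.0551) and -0.05 (adjusted p = 0.454), and the difference from the other 8 was also lost without Ala C (-0.19, adjusted p = 0.0698).

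ALA1 did not stand alone in Ala, where ILS1, MES1, GLN4 and DED81 had differences at least as far below 0. Its group means ran from 6763 ± 841 normalized reads in Ala through 7415 ± 655 in Trp, 7502 ± 371 in Thr, 7577 ± 750 in Met, 7579 ± 153 in Val, 7991 ± 712 in Phe, 8181 ± 75.9 in Ile, 8497 ± 1440 in Gly and 8724 ± 577 in Ctrl to 9516 ± 1200 in Cys (SD, n = 4). Neighbours in this order differed by less than the larger of their SDs. Against Ctrl, ALA1 passed in Ala alone among the 9 treatments with the authors' scaling, and with equal library totals it passed in Trp instead (-0.25, adjusted p = 0.04, limma).

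**Figure D2:**
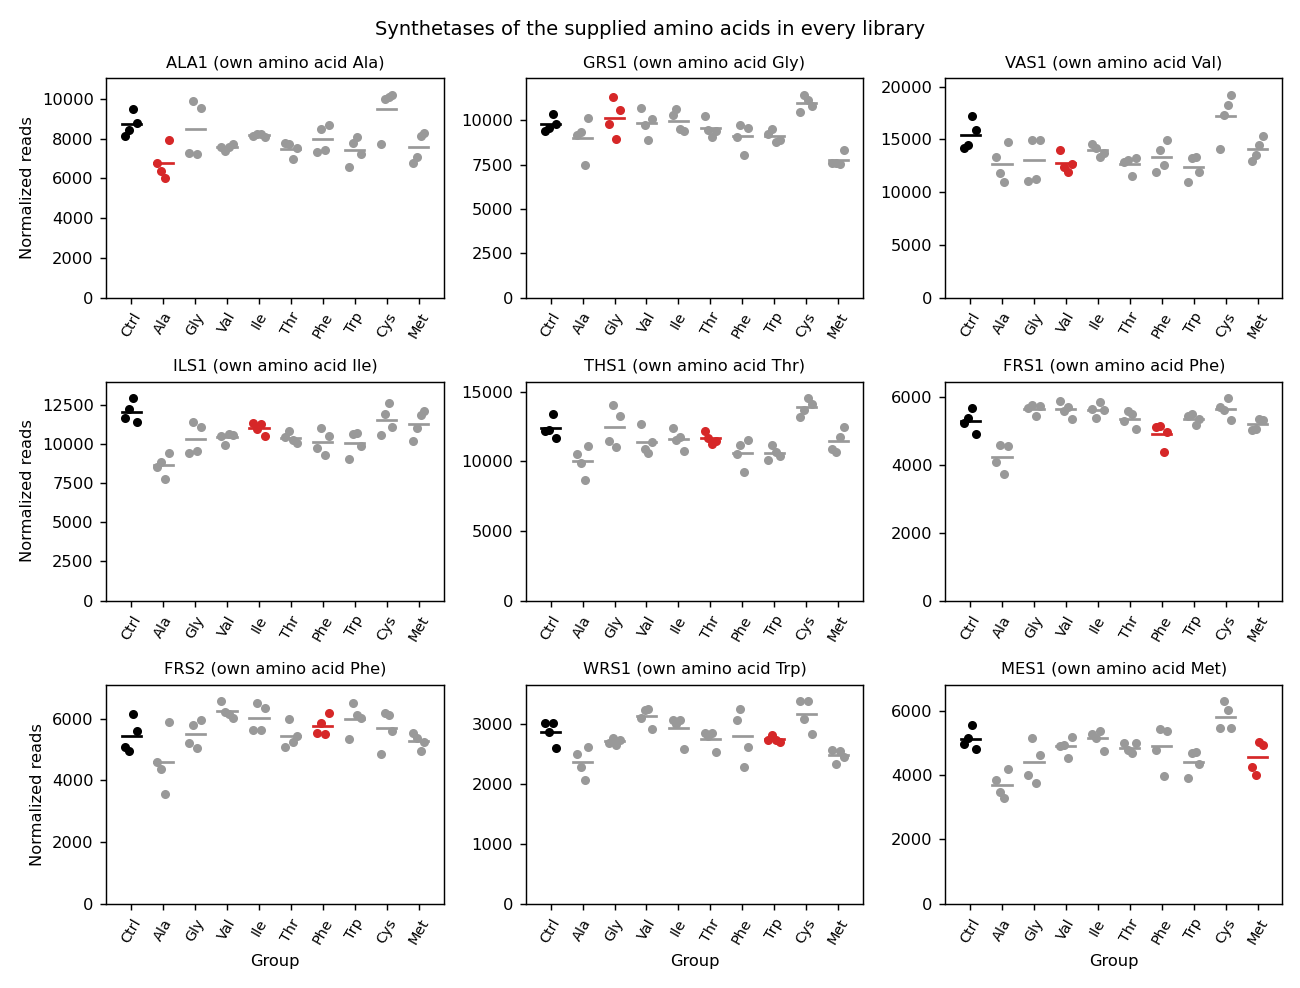
Normalized reads (y axis, from 0) of the 9 cytosolic synthetase genes whose amino acid was a treatment, in each library of the 10 groups on the x axis; points are libraries A to D from left to right, lines are means of 4, black is Ctrl and red the treatment with the gene's own amino acid. ALA1 lies lowest in its own group, at a mean of 6763, VAS1 and ILS1 also lie below all 4 Ctrl libraries in theirs, and the other 6 genes overlap Ctrl.

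The other 8 own synthetases did not pass the test against Ctrl. GRS1 in Gly had 9799, 11324, 8935 and 10574 normalized reads against 9411 to 10371 in Ctrl, a log2 difference of 0.05 with an interval of -0.12 to 0.22. The Gly libraries spread on both sides of Ctrl, and without Gly B the difference was -0.005. GRS2 in Gly had a difference of -0.09 from Ctrl (adjusted p = 0.582), and against the other 8 amino acids, a mean that holds the high Ala and Trp groups, it was lower by -0.24 (adjusted p = 0.0191, limma).

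VAS1 in Val had 13957, 12421, 11951 and 12698 normalized reads, all below the lowest Ctrl library at 14224, with a log2 difference of -0.27 ± 0.11 (SE; interval -0.49 to -0.06; adjusted p = 0.149, limma). With equal library totals this difference was -0.33 and passed (adjusted p = 0.0141), so on that scale VAS1, not ALA1, was the own synthetase called. VAS1 was not particular to Val: against the other 8 its difference was -0.09 (adjusted p = 0.585), and it ranked 6 of 9 from the highest.

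ILS1 in Ile had 11327, 10948, 11277 and 10491 normalized reads, below all 4 Ctrl libraries, with a log2 difference of -0.13 (interval -0.29 to 0.03). With equal library totals that difference was -0.16 (interval -0.28 to -0.04), and no member was called in Ile. THS1 in Thr had a difference of -0.09 (-0.26 to 0.09), with 12193, 11685, 11240 and 11491 normalized reads against 11648 to 13389 in Ctrl. WRS1 in Trp had 2732, 2805, 2726 and 2689 normalized reads against 2590 to 3013 in Ctrl, a difference of -0.06 (-0.23 to 0.11). The last 2 overlapped Ctrl.

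FRS1 and FRS2, the subunits of 1 enzyme, had differences of -0.11 (-0.24 to 0.02) and 0.08 (-0.12 to 0.29) in Phe. MES1 in Met had 4240, 4007, 5032 and 4944 normalized reads against 4821 to 5569 in Ctrl, and a difference of -0.18 (-0.37 to 0.02). Met A and B were below Ctrl and Met C and D within it. Apart from ALA1, the 95% intervals of the own synthetases, each for 1 gene, lay within -0.49 to 0.29 on the deposited scale, so smaller changes are not shown to be absent. With equal library totals the interval of VAS1 in Val ran from -0.50 to -0.15 and that of ILS1 in Ile from -0.28 to -0.04.

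YNL247W, the gene of the cysteinyl enzyme, lies outside the 33 names and was set beside them. It had 4356, 4979, 4970 and 4617 normalized reads in Cys against 3979, 4146, 4470 and 4095 in Ctrl, a log2 difference of 0.18 (interval 0.02 to 0.34; adjusted p = 0.297, limma). Cys A lay within Ctrl and the others above it. Against the other 8 treatments YNL247W was higher by 0.16 (adjusted p = 0.0353), though its mean in Gly, 4835 ± 508, was above that in Cys, 4731 ± 301 (SD, n = 4). The 5 mitochondrial enzymes of a supplied amino acid, ISM1 in Ile, MST1 in Thr, MSF1 in Phe, MSW1 in Trp and MSM1 in Met, had log2 differences of 0.03, 0.10, 0.20, 0.24 and -0.02, and none passed; at an unadjusted p, MSW1 alone had an interval above 0 (0.01 to 0.46). With the batch letter as a block MSW1 passed in Trp, with the same difference of 0.24 (adjusted p = 0.0458, limma).

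Outside Ala, 10 of 264 pairs of a member and a treatment passed against Ctrl, and none reached a log2 difference of 0.5. The pooled share over all genes was not computed. By treatment, it ran from 1.26% higher and 0.655% lower in Ile to 14% higher and 12.2% lower in Gly. The 10 calls are therefore not shown to set the members apart from other genes. With the batch letter as a block more members were called in Gly, Val, Thr, Phe, Trp and Met, as given below and above. Trp held 5 of them, 4 cytosolic genes lower and GRS2 higher, where 6.32% of all genes rose and 6% fell. KRS1 had 11654, 12621, 12256 and 11923 normalized reads in Trp against 15852, 15655, 16377 and 15042 in Ctrl, a log2 difference of -0.38 ± 0.09 (SE; adjusted p = 0.00566, limma). The groups did not overlap, and against the other 8, where 9.37% of genes passed, KRS1 was lower by -0.28 (adjusted p = 0.00794). VAS1, ILS1 and DED81 fell by 0.32, 0.26 and 0.24 in Trp and GRS2 rose by 0.34. These 4 calls were lost with single libraries left out: all 4 without Ctrl B, Ctrl C or Trp A, and only KRS1 was then called (1 of 33 members). VAS1 and GRS2 were also lost without Ctrl D, the 3 lower genes without Trp D, DED81 without Ctrl A or Trp C, and GRS2 without Trp B, with values from -0.35 to -0.20 for the lower genes and 0.27 to 0.34 for GRS2. With equal library totals GRS2 was lost as well (0.33, adjusted p = 0.0663, limma), and ALA1 and THS1 were called, both lower.

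All 4 cytosolic genes that fell in Trp, KRS1, VAS1, ILS1 and DED81, carry TGACTC before the start codon. The 8 cytosolic genes with that core had a median of -0.24 in Trp and the 12 without it -0.07; GRS2 was the 1 gene called among those 12. In the other treatments the medians with and without the core were -0.02 and -0.01 in Gly, -0.18 and -0.01 in Val, -0.11 and 0.03 in Ile, -0.13 and -0.04 in Thr, -0.22 and -0.09 in Phe, 0.10 and 0.12 in Cys and -0.11 and -0.04 in Met. Among the other protein genes tested, members left out, 9.72% of 720 genes with TGACTC fell in Trp and 5.35% of 4881 without it. No test was made of these values. Of the other tRNA genes, YDR341C fell by 0.51, LOS1 by 0.41 and TRL1 by 0.47, and MRF1 rose by 0.31 on the log2 scale.

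In Gly, where 14% of all genes rose and 12.2% fell, 3 members passed: ILS1 fell by 0.23, MSW1 rose by 0.34 and MSE1 by 0.29 on the log2 scale. MSW1 had 260, 228, 198 and 247 normalized reads in Gly, and Gly C lay within Ctrl. None of the 3 calls held without Ctrl B, Ctrl C or Gly A. MSE1 was also lost without Ctrl D, Gly C or Gly D (0.26 to 0.28), MSW1 without Gly D (0.31) and ILS1 without Gly C (-0.19), while without Gly B the count was 6. The MSE1 call did not hold with equal library totals (adjusted p = 0.0977, limma) or with no filter (adjusted p = 0.0519, limma). KRS1 in Gly had 18590, 19481, 15608 and 20392 normalized reads, and against the other 8, where 25% of genes passed, it was higher by 0.40 (adjusted p = 3.4e-05, limma). Against Ctrl KRS1 did not pass in Gly (adjusted p = 0.067), and Gly C lay within Ctrl; with equal library totals it passed, higher by 0.23 (adjusted p = 0.0332, limma). With the batch letter as a block, VAS1 was also called in Gly, lower by -0.25 (adjusted p = 0.0494, limma). That fit called 1001 of all genes higher and 911 lower. Of the other lists, without the block, 1 charging gene rose in Gly. In the same comparison 1 elongation factor gene, 1 general control gene and 2 genes for tRNA export and splicing fell. They are not named here.

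In Thr, 1 member passed, where 5.87% of all genes rose and 5.33% fell. MSE1 had 279, 232, 224 and 215 normalized reads in Thr, all above the highest Ctrl library at 194, with a log2 difference of 0.38 (adjusted p = 0.0226, limma). The call was lost without Thr A (0.30) or Ctrl D (0.34). With the batch letter as a block, 3 members passed in Thr, adding ILS1 and VAS1, both lower. That fit called 464 of all genes higher and 450 lower. Of the other lists, without the block, 1 mitochondrial translation factor gene and 1 gene for tRNA export and splicing rose in Thr. They are not named here.

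In Met, where 6.06% rose and 3.74% fell, GRS1 was the 1 member that passed. It had 7627, 7615, 7566 and 8310 normalized reads in Met, below all 4 Ctrl libraries, a log2 difference of -0.33 ± 0.08 (SE; adjusted p = 0.00696, limma). Met D stood above the other 3 and still below Ctrl. Against the other 8 treatments, where 14.6% of genes passed, GRS1 was lower by -0.32 (adjusted p = 0.00027). With the batch letter as a block, 3 members passed in Met, adding GLN4 and DPS1, and without Met A the count was 2. The block called 483 of all genes higher and 405 lower in Met. In the other lists CAM1, an elongation factor gene, fell by 0.31 and GCN4 rose by 0.27.

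No member passed in Val, Ile, Phe or Cys with limma, and 6, 2, 8 and 3 members had an unadjusted p under 0.05. The shares of all genes higher and lower were 2.51% and 2.88% in Val, 1.26% and 0.655% in Ile, 3.7% and 1.9% in Phe and 1.29% and 1.54% in Cys. With the batch letter as a block 1 member passed in Val, KRS1, and 2 in Phe, ILS1 and DED81, all lower. That fit called 222 of all genes higher and 277 lower in Val, and 271 higher and 164 lower in Phe. Without Phe B the count of members in Phe was 2 and without Ctrl D it was 1. Of the other lists, without the block, 1 gene for tRNA export and splicing fell in Val and is not named here. In Phe the list of other charging genes held AIM10, whose values were mostly fractional and which rose by 0.54. Among the mitochondrial translation factors MRF1 rose by 0.35 in Phe.

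In Cys, 29 of the 33 members had a positive log2 difference from Ctrl, against 3126 of all 6103 genes, though no member passed the test. The medians were 0.12 for the cytosolic and 0.12 for the mitochondrial genes beside 0.005 for all genes, and with equal library totals they were 0.048 and 0.052 beside -0.063. Against the other 8 treatments, a mean that holds the low Ala group, 13 members were higher and 1 lower in Cys. Of the 20 cytosolic genes 12 were higher and 1 lower, and of the 13 mitochondrial genes 1 was higher. Over all 6103 genes 1049 were higher and 1076 lower, 34.8% together. In Cys the mitochondrial elongation factor genes MEF1 and MEF2 moved apart, by 0.37 and -0.65 on the log2 scale.

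Against the other 8, few members passed in the remaining treatments: 1 in Val (6.49% of genes), 1 in Thr (11.5%) and 2 in Phe (8.65%). In Ile, where 5.36% of genes passed, 0 members did with limma, and 4 had an unadjusted p under 0.05.

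**Figure D3:**
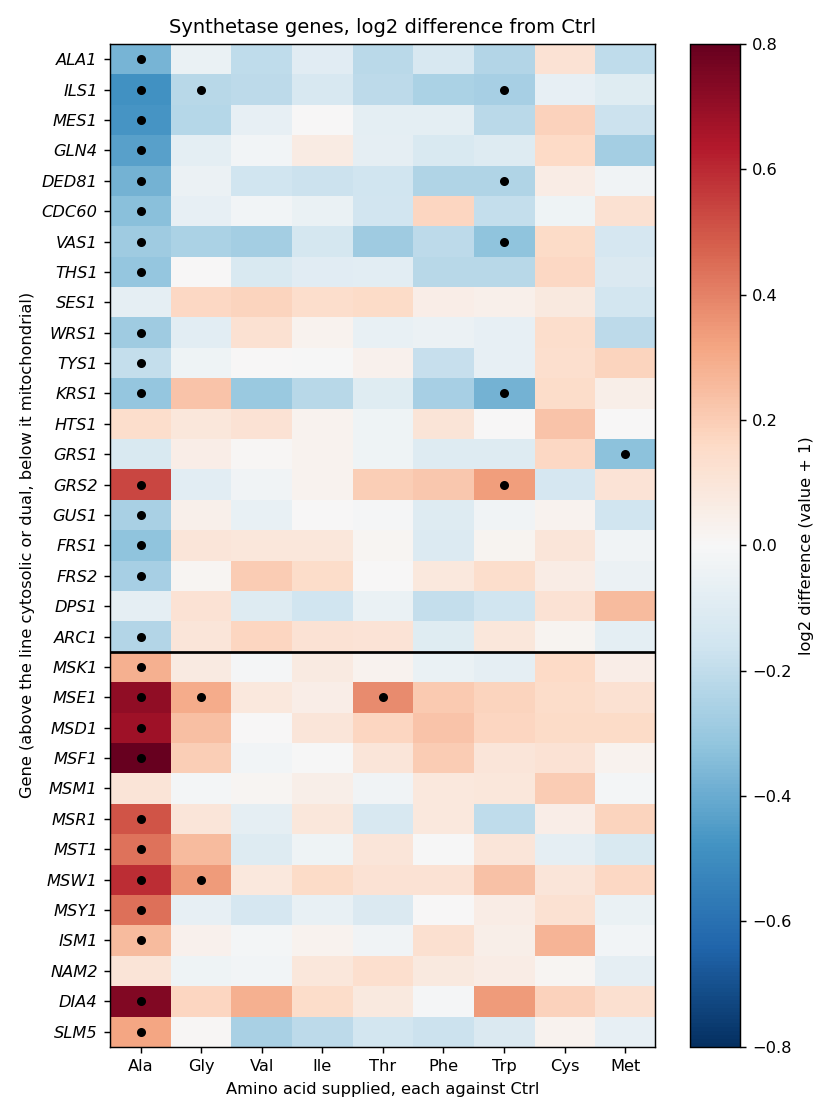
Log2 difference from Ctrl (colour, log2 of value + 1) of the 33 members in rows, cytosolic above the line and mitochondrial below it, for the 9 treatments in columns; black dots mark an adjusted p under 0.05. Of the 37 dots, 27 are in the Ala column, where blue above the line and red below it show the cytosolic genes lower and the mitochondrial genes higher.

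Over the mean of the 9 treatments against Ctrl, 1 member passed, where 5.15% of all genes rose and 3.88% fell. ILS1 was lower by -0.22 ± 0.06 on the log2 scale (SE; adjusted p = 0.0144, limma), with group means from 8643 ± 715 normalized reads in Ala to 11542 ± 897 in Cys against 12058 ± 684 in Ctrl (SD, n = 4). All 9 means were below that of Ctrl, and ILS1 is 1 of the 3 members with mostly fractional values. The call was lost without Ctrl B (-0.21, adjusted p = 0.0692) or Ctrl C (-0.18, adjusted p = 0.0995). With the batch letter as a block 4 members passed, the others being MSE1, MSD1 and MSW1, all higher. That fit called 414 of all genes higher and 363 lower. Of the other lists, MRF1 was higher by 0.25, and AIM10, with mostly fractional values like ILS1, by 0.41.

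Of the 33 members, 28 passed against Ctrl in at least 1 treatment, and SES1, HTS1, DPS1, MSM1 and NAM2 passed in none. Of these 5, HTS1 (0.33) and NAM2 (0.29) were higher in Ala and DPS1 (0.33) in Met with equal library totals. DPS1 was also called in Met with the batch letter as a block (0.25). The share of all genes that passed in at least 1 treatment was not computed. In Ala alone 23.1% of all genes rose and 24.2% fell, so the 28 are not shown to set the members apart. Deviations of single libraries from their group mean correlated at a median r of 0.48 over the 190 pairs of cytosolic genes, 0.18 over the 78 pairs of mitochondrial genes and -0.29 over the 260 mixed pairs. These r values are over 40 libraries that share their scaling factors and batch letters, and describe the libraries without a test.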

How the data were processed

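RNA of 40 yeast libraries was sequenced from poly(A)-selected, directional libraries, per the labels' protocols. The table deposited by the authors gives a signal for every gene in every library, normalized read counts. STAR 2.7.8a and Partek are named, without a role, in the submitters' processing notes. The sources used here do not give the build, the annotation, the use of strand or the choice of scaling factors, and no coordinates are printed. Steps between low values gave 1 factor per library, with 88.8 to 90.9% of values whole within 0.1 read. The rest were fractional, so no count test was run.

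The test was limma 3.58.1, run in R 4.3.3 with a variance prior that follows the mean. It was fitted to log2(value + 1) with a mean for each of the 10 groups. The batch letter was left out of the fit, except where a block is named. Genes whose mean reached 5 were kept, 6103 in all, and p-values were adjusted by Benjamini-Hochberg over them (threshold 0.05). On this scale the changes of genes with few reads are understated. Each treatment was set against Ctrl and against the mean of the other 8, and the mean of the 9 against Ctrl. The fit was tested on simulated data.

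Groups came from the labels, which name the letters A to D as batches and so pair the libraries. As a check, deviations from group means had a mean r of 0.174 for equal and -0.0576 for unequal letters. The main fit did not use this pairing. The titles call each sample yeast cultures without saying which come from separate ones; the p-values then reflect only how these samples vary, in part perhaps for technical reasons. Named with values was each synthetase of a supplied amino acid. So were members past the threshold with a log2 difference of at least 0.5, or past it in the mean of the 9. Listed genes of tRNA charging, translation, general control and tRNA processing past the threshold against Ctrl were named too. In Gly, Val and Thr these listed genes were only counted. Members described beyond this rule, such as KRS1, DED81 and FRS1, were picked with their values already known. The members, lists and tests were chosen with earlier results of these data known. R64 served only for names, coding lengths and the motif windows. Alternatives were pseudocounts of 0.25 and 4, no filter, 2 other scalings, a batch block, fits to only those groups that were compared, and each library left out. Of the scalings, the median of ratios gave almost the same differences as the deposited values.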

Additional observations from a re-analysis of the deposited data

Results flagged for a closer look

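Within each group of 4, the highest or lowest library was set against the other 3 by its gap as a share of the group's range (Dixon's test at the 95% level) for 33 members, YNL247W and the 2 summed levels. Of 360 sets of values, 16 stood out, where chance flags about 5%. In Phe C the summed mitochondrial level was 4092 normalized reads against 3419 to 3487 in the other 3, and in that library NAM2 at 652.38 and MSE1 at 237.422 also stood above the rest. Lower than their group were ALA1 in Cys A (7727.77), GUS1 in Cys A (9481.15), ILS1 in Val B (9917.58), ARC1 in Met B (5276.11), HTS1 in Ctrl D (3472.28) and WRS1 in Ile D (2577.66) and Thr D (2517.86). Higher were GRS1 in Met D (8309.51), GRS2 in Ala B (392.778), MST1 in Ctrl A (249.334), and in Val MSK1 in library B (603.13), MSM1 in D (240.694) and MSW1 in A (225.229).

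Tested differences from the mean of the other 8 treatments passed for ALA1 in Ala (-0.246 on the log2 scale), GRS2 in Gly (-0.244), YNL247W in Cys (0.16), KRS1 in Gly (0.40) and in Trp (-0.281) and GRS1 in Met (-0.316). In Ala, 26 members passed both this comparison and that with Ctrl in the same direction. Of all genes, 50.7% passed against the other 8 in Ala, and the share that passed both was not computed. Both comparisons use the same Ala libraries, so the 26 are not shown to set the members apart from other genes. In Cys 14 members passed against the other 8, where 34.8% of all genes did. In Met 6 members passed, where 14.6% of all genes did. Whether these counts of members exceed the shares of all genes was not tested. For every treatment but Ala, the mean of the other 8 holds the Ala group, in which cytosolic members were low.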

How the results depend on the processing

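Of 763 recomputed log2 differences of 47 single-gene results, 675 kept their direction and side of the threshold, 86 lost and 1 gained the threshold and 1 reversed. The reversed value was GRS1 in Gly, 0.05 in the report, at -0.005 without Gly B and from there to 0.109 with other libraries left out. With equal library totals the counts of members called were 5 in Gly, 4 in Val, 3 in Thr, 2 in Phe and 3 in Met, and 2 in the mean of the 9. In Trp the count was 6, with GRS2 lost and ALA1 and THS1 gained. Over all genes, 763 were then called higher and 730 lower in Gly, 114 and 283 in Val, and 348 and 274 in Thr. The calls were 242 and 93 in Phe, 332 and 386 in Trp, 483 and 134 in Met, and 309 and 196 in the mean of the 9. On that scale 4 cytosolic members were lower in Ala and 2 higher, 0 own synthetases passed against the other 8, and 17 members passed in Ala against both Ctrl and the other 8. This scaling moves all genes of a library together. With the replicate block the counts were 1 in Val, 3 in Thr, 2 in Phe, 3 in Met and 4 in the mean of the 9. The block also added VAS1 in Gly (3 to 4) and MSW1 in Trp (5 to 6), and lost no call in the 9 treatments. Over all genes it raised the calls too, in the mean of the 9 from 314 higher and 237 lower to 414 and 363. A fit to the compared groups only gave 0 in Gly, where 0 of the 3 calls held, and 1 in Val, and 22 in Ala; it uses fewer libraries for the spread. Otherwise the cause was not tested.

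With each library left out in turn, the counts ran from 0 to 6 in Gly, 0 to 1 in Thr, 0 to 2 in Phe, 1 to 4 in Trp, 1 to 2 in Met and 0 to 3 in the mean of the 9. They ran from 0 to 1 for own synthetases against the other 8 and from 17 to 26 for Ala against both. The count of 27 in Ala ran from 20 to 27. Leaving out ILS1, MES1 and GLN4, an alternative chosen after seeing the data, left 12 cytosolic members lower in Ala. Pseudocounts of 0.25 and 4 and scaling by the median of ratios changed no count of members in a comparison with Ctrl. The median of ratios hardly differed from the deposited scale. Over all genes in Ala it called 1407 higher and 1472 lower, against 1407 and 1474, so it is little of a check. Depth limits most the mitochondrial genes, which had the lowest levels per kilobase together with GRS2.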
